A study of Mus musculus with 16 samples.

Results

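The 10 genes described here are core and output genes of the circadian clock, namely Arntl, Clock, Per1, Per2, Per3, Cry1, Nr1d1, Nr1d2, Dbp and Nfil3. They were taken by gene symbol from a table of 41204 genes, without regard to their values, and all 10 were among the 23754 genes that passed the filter on low counts. RNA was sequenced from 4 tendons of mice of the inbred strain C57BL/6J. The groups were the supraspinatus tendon of the shoulder (Supraspinatus), the patellar tendon of the knee (Patellar), the flexor tendon of the forepaw (Flexor) and the Achilles tendon of the heel (Achilles), with 4 libraries each, numbered as mice 1 to 4. The mice carried no named allele and no named treatment. Their age and sex, the hour of collection, and whether equal numbers stand for 1 animal are not stated in these sources.

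The circadian clock is a transcriptional loop present in most mammalian cells. ARNTL (also called BMAL1) and CLOCK bind E-boxes as a pair and switch on the Per and Cry genes, whose proteins then block that pair. The same pair switches on Nr1d1 and Nr1d2, which encode the repressors REV-ERB alpha and beta, and these in turn repress Arntl and Nfil3 through ROR elements (ROREs). DBP activates and NFIL3 represses genes through D-boxes. In mouse tissues with a running clock, Arntl and Nfil3 peak well apart in the day from Nr1d1, Dbp and Per3, and Cry1 peaks later than the Per genes. A difference in phase can therefore move Arntl and Nfil3 one way and Dbp, Nr1d1 and Per3 the other. Whether it does so at a given time depends on the hour of collection.

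The elements named above were searched for in the 250 bases before each annotated start site of the members, taken from RefSeq on GRCm38.p6, and 9 of the 10 members had an entry (Per2 had none). The letters were CACGTG for the E-box and CACGTT for its variant, AGGTCA for the RORE core and TTATGTAA or TTATGCAA for the D-box, on both strands, with no overlap between matches. Among 32851 promoter windows of the same length, 6.02% held the E-box, 3.85% the variant, 14.0% the RORE core and 1.5% the D-box. The windows of Per1, Per3 and Cry1 are shown because they hold the E-box or D-box and belong to genes that behaved differently across the tendons. Capitals mark the matches, and each sequence runs from 5′ to 3′ on the strand of the gene and ends at the base before the start site.
Per1, chr11:69098699-69098948, plus strand: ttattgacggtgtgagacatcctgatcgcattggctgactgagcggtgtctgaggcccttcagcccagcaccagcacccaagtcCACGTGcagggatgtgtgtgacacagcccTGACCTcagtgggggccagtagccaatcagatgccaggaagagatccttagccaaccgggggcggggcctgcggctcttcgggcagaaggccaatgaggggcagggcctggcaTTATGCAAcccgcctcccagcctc
Per3, chr4:151044666-151044915, minus strand: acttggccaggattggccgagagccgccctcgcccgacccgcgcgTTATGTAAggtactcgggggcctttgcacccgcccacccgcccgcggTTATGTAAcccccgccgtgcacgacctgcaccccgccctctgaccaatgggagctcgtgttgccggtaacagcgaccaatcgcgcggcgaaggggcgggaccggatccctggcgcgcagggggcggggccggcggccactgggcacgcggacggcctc
Cry1, chr10:85185055-85185304, minus strand: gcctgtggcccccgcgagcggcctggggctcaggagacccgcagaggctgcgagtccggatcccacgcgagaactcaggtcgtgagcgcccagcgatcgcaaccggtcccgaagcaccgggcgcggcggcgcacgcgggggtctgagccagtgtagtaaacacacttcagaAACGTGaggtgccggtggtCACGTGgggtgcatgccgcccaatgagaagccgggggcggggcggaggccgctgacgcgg
The window shown for Per1 start site 1 held an E-box at -166, an opposite-strand RORE core at -137 and a D-box at -24. Positions are counted back from the start site to the first base of the match. The window of Per1 start site 2 held no match. The Per3 window held D-boxes at -205 and -158, and the Cry1 window an E-box at -60 and an E-box variant at -79. Of the others, Nr1d1 held the E-box variant at -28, and Nr1d2, Nfil3 and 1 of 3 start sites of Clock held a RORE core at -77, -12 and -119. No match was found in the windows of Arntl and Dbp. A match is a description of these letters and does not show that a factor binds there.

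Total counts ranged from 86898889 to 107805065 per library in Supraspinatus, from 34559686 to 63235636 in Patellar, from 97242489 to 106573353 in Flexor and from 84414005 to 97180849 in Achilles. Levels are given as CPM, the read counts of a gene relative to the total of its library after TMM scaling in edgeR. The clock genes together took 0.0495% to 0.0965% of the counts of a library, and their smallest count was 50, for Cry1 in Patellar library 3. All 7 tenocyte markers, Scx and Tnmd among them, were detected in every library. Genes with rRNA-like sequence took 13.2% to 42.04% of the Patellar counts and 1.86% to 4.91% elsewhere. The 16 skeletal muscle markers took 14.5% to 15.3% of the counts in Supraspinatus, 0.0572% to 0.790% in Patellar, 7.81% to 10.8% in Flexor and 4.75% to 9.07% in Achilles, and none was at 0 in any library. In bulk tissue, fewer cells of a type and less RNA per cell cannot be told apart.

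**Figure D1:**
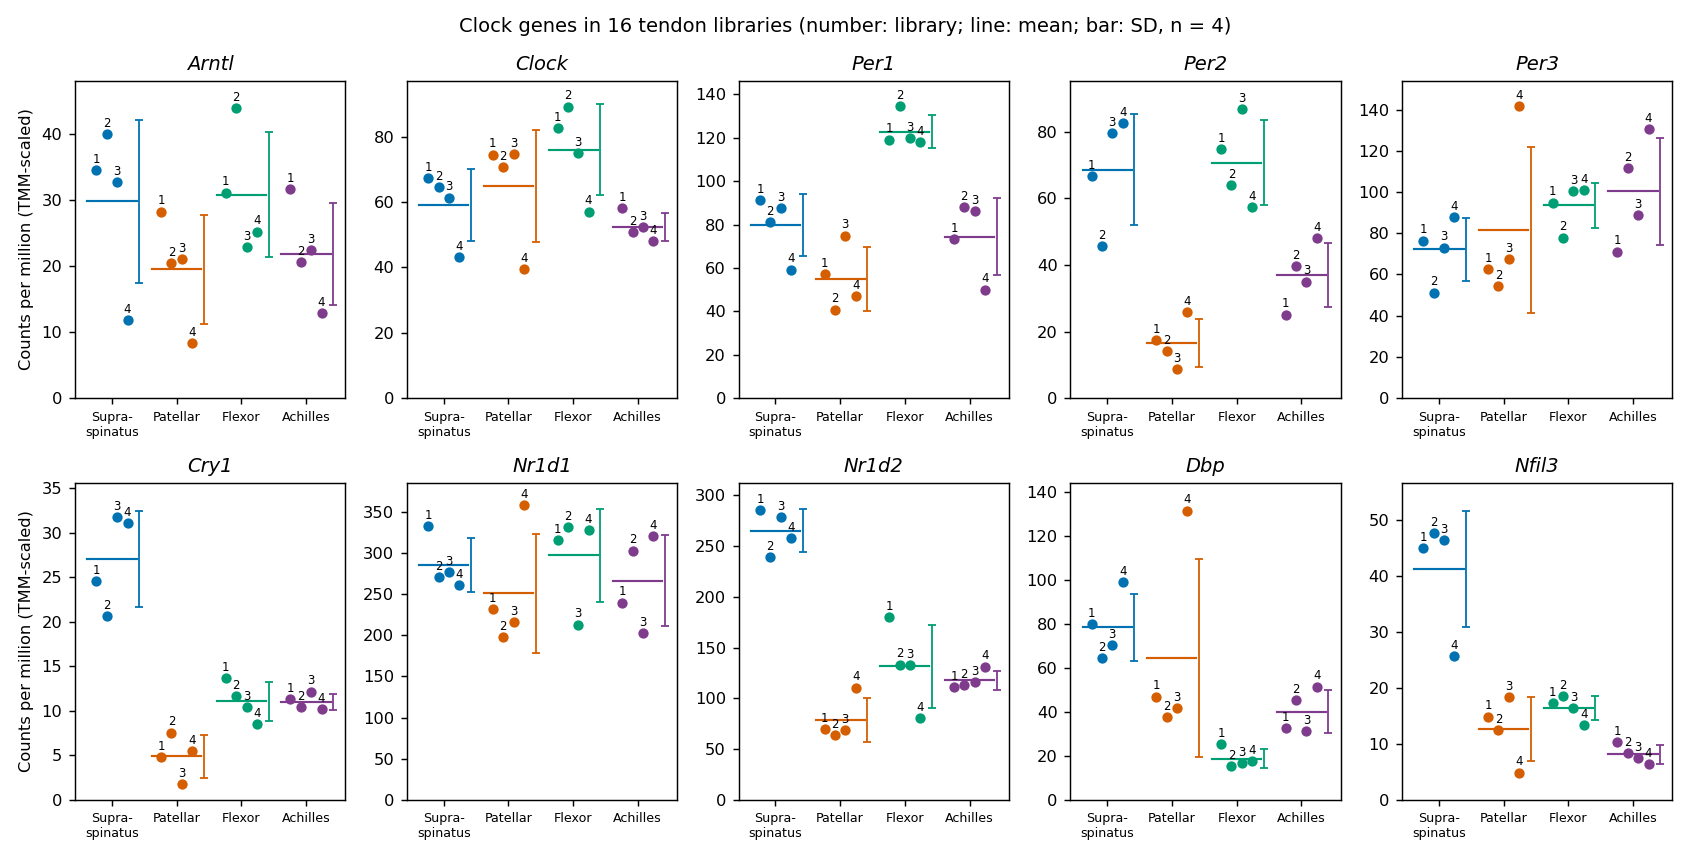
Level of each clock gene in the 16 libraries, in TMM-scaled CPM (vertical axis, from 0) by tendon (horizontal axis), with each point labelled by its library number, the mean as a line and the SD as a bar (n = 4). Cry1, Nr1d2 and Nfil3 were highest in Supraspinatus and Per1 in Flexor, while Arntl, Clock, Per3 and Nr1d1 overlapped between all tendons.

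Of the 10 genes, 6 differed between tendons in the edgeR quasi-likelihood test over all 4, where 64.9% of all genes tested did. These were Per1, Per2, Cry1, Nr1d2, Dbp and Nfil3, with edgeR adjusted p-values between 1.49e-05 for Nr1d2 and 0.000745 for Per1. The other 4 did not pass: Clock had an edgeR adjusted p of 0.105, Arntl 0.313, Per3 0.368 and Nr1d1 0.678. Without Patellar library 4, Clock and Per3 did pass, with edgeR adjusted p-values of 0.0144 and 0.0159. With a term for the skeletal muscle markers in the fit, Per2 did not pass (edgeR adjusted p = 0.118). Tendon accounted for 72.3% to 85.1% of the variance of log2 CPM in the 6 genes that passed, and for 21.6% in Arntl, 33.7% in Clock, 23.6% in Per3 and 13.5% in Nr1d1, against a median of 74.5% over genes with a mean CPM of at least 10.

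The activators Arntl and Clock, whose proteins form the DNA-binding pair at the head of the loop, passed in none of the 6 comparisons between tendons. Arntl (chr7:113207465-113314126 on GRCm38, plus strand) had 34.6, 40.0, 32.7 and 11.85 CPM in Supraspinatus libraries 1 to 4 and 28.3, 20.4, 21.0 and 8.32 CPM in Patellar. It had 31.1, 44.0, 22.8 and 25.2 CPM in Flexor and 31.65, 20.6, 22.4 and 12.85 CPM in Achilles. All tendons overlapped, and library 4 was the lowest in Supraspinatus, Patellar and Achilles. The within-tendon SD of Arntl was 0.649 on the log2 scale, larger than that of 94.1% of genes with a mean CPM of at least 10. The largest Arntl difference was Patellar minus Flexor, with a log2 fold change of -0.66 ± 0.38 (SE; edgeR adjusted p = 0.166). Supraspinatus minus Patellar was 0.61 ± 0.38 (edgeR adjusted p = 0.194), and it passed without Supraspinatus library 4, at 0.89 (edgeR adjusted p = 0.0437).

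Clock (chr5:76209868-76304792, minus strand) had 67.3, 64.7, 61.4 and 43.2 CPM in Supraspinatus libraries 1 to 4 and 74.6, 70.8, 74.7 and 39.45 CPM in Patellar. It had 82.8, 89.3, 75.0 and 57.1 CPM in Flexor and 58.2, 50.8, 52.4 and 47.9 CPM in Achilles. Library 4 was the lowest in all 4 tendons. The mean was highest in Flexor and lowest in Achilles, a log2 fold change of 0.54 ± 0.19 that did not pass (Flexor minus Achilles, edgeR adjusted p = 0.0715). That difference did pass without Patellar library 4, at 0.55 (edgeR adjusted p = 0.0183), and with the Patellar libraries left out of the fit, at 0.52. Patellar minus Achilles was 0.31 (edgeR adjusted p = 0.224), and 0.46 without Patellar library 4 (edgeR adjusted p = 0.0341).

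Among the Per and Cry repressors, Per1 was highest in Flexor, Per2 lowest in Patellar, Cry1 highest in Supraspinatus and lowest in Patellar, and Per3 did not pass in any pair. Per1 (chr11:69095217-69109960, plus strand) had 91.4, 81.1, 87.6 and 59.3 CPM in Supraspinatus, 57.2, 40.8, 74.9 and 47.0 CPM in Patellar, 119.2, 134.5, 119.8 and 118.1 CPM in Flexor, and 73.4, 88.1, 86.35 and 50.01 CPM in Achilles. The 4 Flexor libraries lay above all 12 others. Per1 rose in Flexor over Achilles by a log2 fold change of 0.72 ± 0.20 (edgeR adjusted p = 0.0206). It fell by 0.62 in Supraspinatus against Flexor (edgeR adjusted p = 0.0283) and by 1.16 in Patellar against Flexor (edgeR adjusted p = 0.000179). Supraspinatus was higher than Patellar by 0.54 ± 0.20 (edgeR adjusted p = 0.0315), although 1 Patellar library exceeded the lowest Supraspinatus one.

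Several Per1 calls depended on single libraries. Flexor minus Achilles missed the threshold without Flexor library 2 or without Achilles library 1 or 4, with edgeR adjusted p-values of 0.0619 to 0.0905. Supraspinatus minus Flexor missed it without Supraspinatus library 2 or 4, Flexor library 2, 3 or 4, or Achilles library 1 (0.0509 to 0.0897). Supraspinatus minus Patellar missed it without Supraspinatus library 1, 2 or 3 or Patellar library 2 or 4 (0.0518 to 0.117), among genes with a mean CPM of at least 5 alone (0.212) and with its 8 libraries alone (0.0858). With the muscle term it was 0.32, and Patellar minus Flexor was -0.97, and both missed the threshold (edgeR adjusted p = 0.746 and 0.211). Patellar minus Achilles, at -0.44 and an edgeR adjusted p of 0.093, passed without Patellar library 3 (0.0144) or Achilles library 4 (0.0299).

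Per2 (chr1:91415982-91459324, minus strand) had 66.8, 45.7, 79.6 and 82.6 CPM in Supraspinatus, 17.3, 14.2, 8.64 and 25.9 CPM in Patellar, 74.75, 64.1, 86.9 and 57.4 CPM in Flexor, and 25.1, 39.6, 35.03 and 48.1 CPM in Achilles. Supraspinatus and Flexor did not differ beyond their spread (log2 fold change -0.04 ± 0.28), and the Patellar libraries lay below every Supraspinatus and Flexor library. Per2 was 2.05 ± 0.29 higher in Supraspinatus than in Patellar and 2.10 ± 0.29 lower in Patellar than in Flexor on the log2 scale (edgeR adjusted p = 2.29e-05 and 2.33e-05). It was 0.89 higher in Supraspinatus, 1.16 lower in Patellar and 0.94 higher in Flexor than in Achilles, with edgeR adjusted p-values of 0.0217, 0.00425 and 0.0307. With the muscle term, Per2 passed in no comparison, and the difference was 1.02 for Supraspinatus minus Patellar, -1.19 for Patellar minus Flexor and -0.38 for Patellar minus Achilles (edgeR adjusted p = 0.391, 0.246 and 0.708). The Flexor minus Achilles call was also lost without Flexor library 1, 2 or 3 or Achilles library 1, 2 or 3 (edgeR adjusted p of 0.0537 to 0.106). The Supraspinatus minus Achilles call was lost without Supraspinatus library 3 or 4 or Achilles library 1 (0.0574 to 0.0694).

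Cry1 (chr10:85131700-85185064, minus strand) encodes the cryptochrome with the strongest repressor activity in the loop and showed the largest log2 fold change of the 10 genes. It had 24.6, 20.6, 31.8 and 31.1 CPM in Supraspinatus, 4.82, 7.55, 1.74 and 5.44 CPM in Patellar, 13.7, 11.6, 10.4 and 8.48 CPM in Flexor, and 11.3, 10.4, 12.2 and 10.2 CPM in Achilles. The Supraspinatus libraries lay above and the Patellar libraries below all others, while Flexor and Achilles overlapped. The log2 fold change of Supraspinatus was 2.45 ± 0.31 over Patellar, 1.29 ± 0.29 over Flexor and 1.30 ± 0.29 over Achilles (edgeR adjusted p = 7.43e-06, 0.00371 and 0.00311). Cry1 was 1.16 ± 0.30 lower in Patellar than in Flexor and in Achilles (edgeR adjusted p = 0.00405 and 0.00613). With the muscle term, these differences were -1.28 and -1.26 and missed the threshold (edgeR adjusted p = 0.247 and 0.214).

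Per3 (chr4:151003652-151044665, minus strand) had 76.5, 51.2, 73.1 and 87.8 CPM in Supraspinatus, 62.8, 54.5, 67.45 and 141.6 CPM in Patellar, 94.9, 78.0, 100.5 and 100.8 CPM in Flexor, and 71.1, 111.5, 88.85 and 130.6 CPM in Achilles. Library 4 was the highest in every tendon, and the tendons overlapped. The log2 fold changes lay between -0.48 ± 0.27 (Supraspinatus minus Achilles, edgeR adjusted p = 0.183) and -0.10 ± 0.27 (Flexor minus Achilles, edgeR adjusted p = 0.843). Patellar library 4 decided 2 of them. Without it, Per3 fell by 0.73 in Patellar against Achilles and by 0.64 against Flexor (edgeR adjusted p = 0.013 and 0.0186).

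The REV-ERB genes, which encode repressors of Arntl and Nfil3, differed from each other in their pattern. Nr1d1 (chr11:98767932-98775333, minus strand) had 333, 271, 277 and 261 CPM in Supraspinatus, 232, 197.7, 216 and 358 CPM in Patellar, 316, 331, 213 and 328 CPM in Flexor, and 240, 303, 203 and 321 CPM in Achilles. All tendons overlapped, no comparison passed, and the largest log2 fold change was -0.24 ± 0.20 (Patellar minus Flexor, edgeR adjusted p = 0.333). Without Patellar library 4 it was -0.50 and passed (edgeR adjusted p = 0.0358). Of the Nr1d1 exon bases, 8.5% overlap Thra on the opposite strand. Thra, which encodes a thyroid hormone receptor, fell by 0.56 in Flexor against Achilles and rose by 0.71 in Patellar over Flexor on the log2 scale (edgeR adjusted p = 0.00345 and 9.08e-05). Its part in the Nr1d1 counts was not tested.

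Nr1d2 (chr14:18204054-18239127, minus strand) had 285.5, 239.5, 278.4 and 257.7 CPM in Supraspinatus, 69.95, 63.8, 68.7 and 110.6 CPM in Patellar, 180.3, 133.3, 132.6 and 80.5 CPM in Flexor, and 110.7, 113, 115.6 and 131.2 CPM in Achilles. The 4 Supraspinatus libraries lay above all 12 others. The log2 fold change of Supraspinatus was 1.76 ± 0.21 over Patellar, 1.01 ± 0.21 over Flexor and 1.17 ± 0.21 over Achilles (edgeR adjusted p = 4.71e-06, 0.00163 and 0.000476). Patellar was 0.75 ± 0.21 lower than Flexor and 0.59 ± 0.21 lower than Achilles (edgeR adjusted p = 0.00656 and 0.0335). The Patellar minus Achilles call was lost without Patellar library 1, 2 or 3 or without any 1 Achilles library (edgeR adjusted p of 0.0528 to 0.0939), and among genes with a mean CPM of at least 5 alone (0.0716).

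Cry1 and Nr1d2 had their highest mean in Supraspinatus and their lowest in Patellar, and so did the summed share of the skeletal muscle markers. Neither gene passed in Flexor minus Achilles, with log2 fold changes of 0.007 for Cry1 and 0.163 for Nr1d2 (edgeR adjusted p = 0.992 and 0.659). The muscle markers had mean shares of 14.8% in Supraspinatus, 0.305% in Patellar, 9.09% in Flexor and 6.19% in Achilles. Single markers did not all have that order. Myh1 and Mb had their highest mean in Flexor, and Myh2 and Myh7 in Achilles. Myh7 was lowest in Supraspinatus, at a mean of 7.578 CPM against 68.59 CPM in Patellar. The fit was repeated with the mean log2 CPM of all the muscle markers as a term. There the Nr1d2 difference was 0.996 for Supraspinatus minus Patellar, -0.07 for Patellar minus Flexor and -0.01 for Patellar minus Achilles on the log2 scale. None of these 3 passed there. The Cry1 difference of Supraspinatus minus Patellar was 2.59 in that fit (edgeR adjusted p = 0.0531). Cry1 and Nr1d2 still passed for Supraspinatus against Flexor and against Achilles. The term rests largely on the difference between Patellar and the other tendons, so the part of muscle and of the Patellar tendon cannot be told apart. Adipocyte markers separated the tendons too, in nearly the opposite order, and none of the 8 was at 0 in any library. They took 0.0338% to 0.164% of the counts in Supraspinatus, 0.738% to 2.28% in Patellar, 0.0576% to 0.0960% in Flexor and 0.388% to 1.02% in Achilles, and their part in the clock gene differences was not tested.

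Dbp and Nfil3 act in opposite directions on D-box genes, and both had their highest mean in Supraspinatus. Dbp (chr7:45705088-45710203, plus strand) had 79.9, 64.3, 70.1 and 99.0 CPM in Supraspinatus, 46.8, 37.4, 41.8 and 131.3 CPM in Patellar, 25.2, 15.4, 16.55 and 17.4 CPM in Flexor, and 32.5, 45.3, 31.2 and 51.4 CPM in Achilles. The Flexor libraries lay below all 12 others. The log2 fold change was 2.07 ± 0.34 for Supraspinatus minus Flexor, 1.79 ± 0.34 for Patellar minus Flexor and -1.10 ± 0.34 for Flexor minus Achilles (edgeR adjusted p = 0.000279, 0.000424 and 0.0338). Supraspinatus was 0.97 ± 0.33 higher than Achilles (edgeR adjusted p = 0.0353).

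Single libraries and the filter on low counts also decided Dbp calls. Flexor minus Achilles was lost without Flexor library 2, 3 or 4 or Achilles library 2 or 4 (edgeR adjusted p of 0.0713 to 0.101) and with no filter (0.0574). Supraspinatus minus Achilles was lost without Supraspinatus library 1, 3 or 4 or Achilles library 1, 2 or 3 (0.0524 to 0.0944), with no filter (0.0588), among genes with a mean CPM of at least 5 alone (0.0593) and with the muscle term (0.269). Supraspinatus minus Patellar was 0.28 ± 0.33 and did not pass, but without Patellar library 4 it was 0.91 (edgeR adjusted p = 0.00291). Patellar minus Achilles, at 0.68 and an edgeR adjusted p of 0.117, was 0.88 without Patellar library 2 (edgeR adjusted p = 0.044). Exons of Sphk2, a sphingosine kinase gene on the opposite strand, overlap 18.0% of the Dbp exon bases. Sphk2 averaged 26.4 ± 1.3 CPM in Supraspinatus, 18.2 ± 3.63 CPM in Patellar, 27.0 ± 2.86 CPM in Flexor and 22.1 ± 2.44 CPM in Achilles (SD, n = 4 each). It was 0.56 lower in Patellar than in Flexor on the log2 scale (edgeR adjusted p = 0.00309), where Dbp was higher, and its part in the Dbp counts was not tested.

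Nfil3 (chr13:52967209-52981073, minus strand) had 45.0, 47.7, 46.4 and 25.7 CPM in Supraspinatus, 14.8, 12.4, 18.3 and 4.84 CPM in Patellar, 17.2, 18.5, 16.4 and 13.35 CPM in Flexor, and 10.3, 8.265, 7.40 and 6.402 CPM in Achilles. Every Supraspinatus library lay above all 12 others, and library 4 was the lowest in each tendon. The log2 fold change of Supraspinatus was 1.71 ± 0.31 over Patellar, 1.33 ± 0.30 over Flexor and 2.35 ± 0.31 over Achilles (edgeR adjusted p = 0.000215, 0.00345 and 4.08e-05). With the muscle term, Supraspinatus minus Patellar was 2.01 and missed the threshold (edgeR adjusted p = 0.124), while the other differences of Supraspinatus passed. Flexor was 1.01 ± 0.30 higher than Achilles (edgeR adjusted p = 0.0299), a call lost without Flexor library 1, 2 or 3 or Achilles library 2, 3 or 4 (0.0576 to 0.106). Patellar minus Achilles was 0.63 (edgeR adjusted p = 0.108), and 0.88 without Patellar library 4 (edgeR adjusted p = 0.00591).

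**Figure D2:**
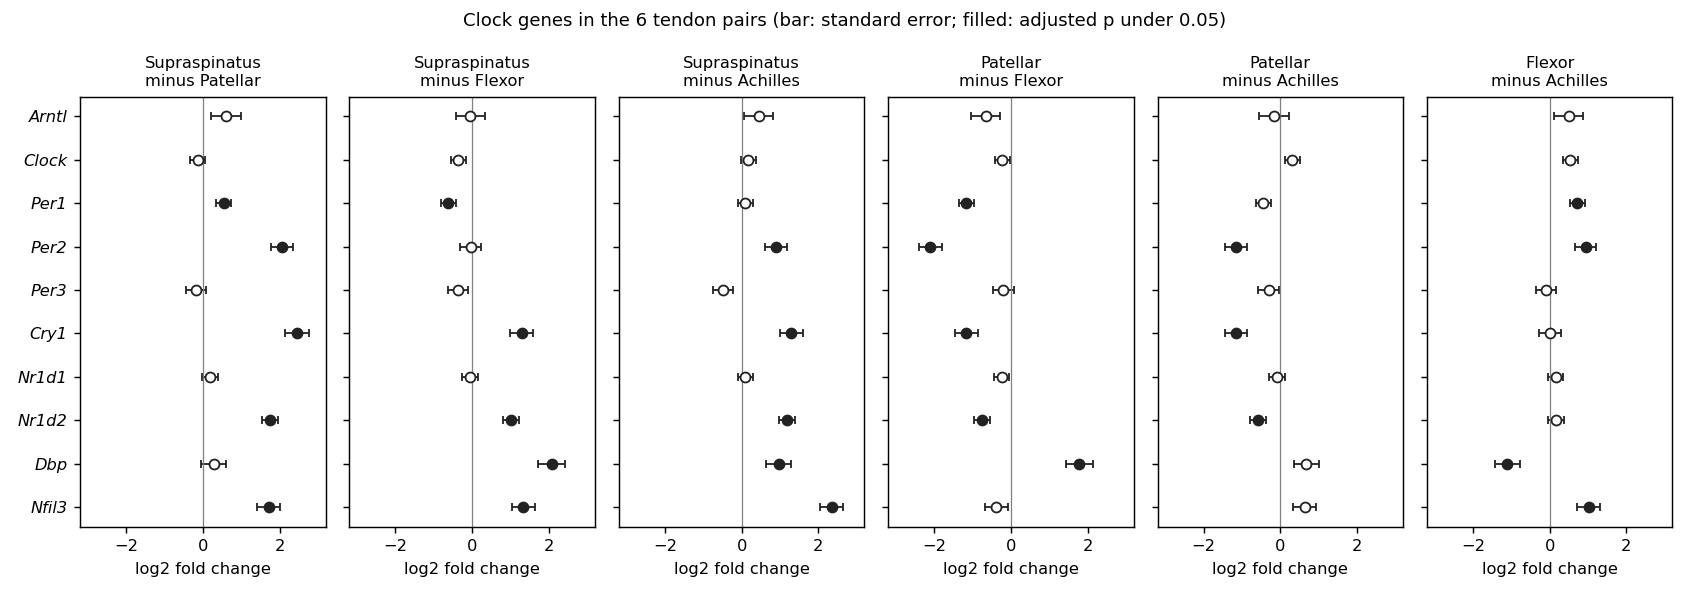
Log2 fold change (horizontal axis) of each clock gene (vertical axis) in the 6 comparisons between tendons, with the standard error as a bar and a filled point where the edgeR adjusted p was under 0.05. The rows of Arntl, Clock, Per3 and Nr1d1 hold no filled point, and the 6 other genes hold 4 or 5 each.

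Per kilobase of exon, the scale on which genes can be set beside each other, Nr1d1 was the highest of the 10 genes in every tendon, at 92.9 ± 10.5 CPM per kb in Supraspinatus, 81.6 ± 23.7 in Patellar, 96.6 ± 18.3 in Flexor and 86.7 ± 17.9 in Achilles (SD, n = 4 each). Arntl was the lowest in Supraspinatus, at 3.96 ± 1.64 CPM per kb (SD, n = 4), and in Achilles, at 2.91 ± 1.03. Cry1 was the lowest in Patellar, at 1.46 ± 0.72 CPM per kb, and in Flexor, at 3.31 ± 0.657, where Arntl was next at 4.09 ± 1.26. Dbp had rank 3 in Supraspinatus at 26.2 ± 5.09 CPM per kb, rank 2 in Patellar at 21.5 ± 15.0, rank 7 in Flexor at 6.23 ± 1.48 and rank 3 in Achilles at 13.4 ± 3.30. Neighbours in these orders, such as Per1 at 13.2 ± 3.12 CPM per kb beside Dbp in Achilles, often lay within each other's spread.

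By comparison, the clock genes that passed were mostly higher in Supraspinatus. Against Patellar, 5 of the 10 were higher and 0 lower in Supraspinatus. Of all genes 53.3% passed there, 26.4% higher and 26.8% lower, and the median log2 fold change was 0.57 over the members and -0.08 over all genes. Against Flexor, 4 were higher (Cry1, Nr1d2, Dbp and Nfil3) and 1 lower (Per1) in Supraspinatus, against 27.1% of all genes (14.7% higher, 12.4% lower), with medians of -0.05 over the members and -0.07 over all genes. Against Achilles, 5 were higher and 0 lower in Supraspinatus, against 33.6% of all genes (16.9% higher, 16.7% lower), with medians of 0.67 and -0.04. That count was 3 without Supraspinatus library 3 or 4 or without Achilles library 1.

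In Patellar, 1 clock gene was higher (Dbp) and 4 lower (Per1, Per2, Cry1 and Nr1d2) than in Flexor, against 50.3% of all genes (24.2% higher, 26.2% lower), with medians of -0.52 over the members and -0.01 over all genes. Against Achilles, 0 were higher and 3 lower (Per2, Cry1 and Nr1d2) in Patellar, against 38.4% of all genes (17.4% higher, 21.1% lower), with medians of -0.23 and -0.01, and without Patellar library 4 the count was 6. In Flexor, 3 were higher (Per1, Per2 and Nfil3) and 1 lower (Dbp) than in Achilles, against 16.2% of all genes (6.5% higher, 9.72% lower), with medians of 0.33 and 0. That last count rested on single libraries: it was 0 without Flexor library 2, 1 without Flexor library 3 or Achilles library 2 or 4, and 2 without Flexor library 1 or Achilles library 1 or 3. With the muscle term, the counts were 0 for Supraspinatus minus Patellar and Patellar minus Achilles, 1 for Patellar minus Flexor, and 3 for Supraspinatus minus Achilles.

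The libraries of the paired tendons did not overlap for 4 of the 10 genes in Supraspinatus minus Patellar (background 41.2%), 5 in Supraspinatus minus Flexor (39.9%) and 4 in Supraspinatus minus Achilles (41.5%). They did not overlap for 4 genes in Patellar minus Flexor (41.4%), 2 in Patellar minus Achilles (32.4%) and 4 in Flexor minus Achilles (31%). In the authors' deposited table all 60 combinations of clock gene and comparison were listed. Of these, 25 were under an FDR of 0.05, all of them among the 27 called here. The direction of each comparison there was set to match this fit over all genes, and the 25 then had the same sign. That table rests on the same libraries and is not separate support.

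Arntl, Clock, Per3 and Nr1d1 passed in none of the comparisons, so the calls do not show whether the 2 sides of the loop moved apart between tendons. Dbp and Nfil3, which peak apart in a running clock, both rose in Supraspinatus over Flexor and over Achilles, and went opposite ways in Flexor against Achilles, with Dbp lower and Nfil3 higher. Per1 and Dbp, which are both E-box targets, went opposite ways in Supraspinatus against Flexor, in Patellar against Flexor and in Flexor against Achilles. Nr1d2 and Nr1d1 differed as well, since Nr1d2 passed in 5 comparisons and Nr1d1 in 0. Patellar library 4 was the lowest of its tendon for Arntl, Clock and Nfil3 and the highest for Per2, Per3, Nr1d1, Nr1d2 and Dbp. Leaving it out therefore had to raise the former and lower the latter in Patellar. It cannot show whether the 2 sides moved apart. In Patellar against Achilles without it, Clock and Nfil3 were higher and Per3 lower, all past the threshold. Nr1d1 differed by -0.33, Arntl by 0.07 and Dbp by 0.04 there on the log2 scale and did not pass. A gene that misses the threshold is not shown to be equal, and with the hour of collection not given, a difference in phase and a difference in level cannot be told apart from these libraries.

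Libraries of 1 tendon also differed in these genes. After each tendon's mean was subtracted from log2 CPM, Arntl and Clock lay on the same side of their mean in all 16 libraries, with a Pearson r of 0.88. Arntl and Nfil3 had an r of 0.87, Arntl and Per3 of -0.84, and Arntl and Dbp of -0.73, while Dbp and Per3 had an r of 0.89 and Dbp and Nfil3 of -0.81. These values describe 16 libraries that share tendons and scaling, and 4 of them carried much of the pattern. In the libraries numbered 4, Clock and Nfil3 were the lowest of their tendon in 4 of 4 tendons and Arntl in 3 of 4, while Per3 was the highest in 4 of 4 and Dbp and Per2 in 3 of 4. Of 9470 genes with a mean CPM of at least 10, 0.433% were the lowest there in 4 of 4 tendons and 7.3% in at least 3. The highest there in 4 of 4 were 0.38% of them, and 637 genes were the highest in at least 3. The number 4 was singled out after the values of the clock genes were seen, so these shares give a scale and not a test. Without the libraries numbered 4, r was 0.87 for Arntl and Clock, 0.48 for Arntl and Nfil3, -0.66 for Arntl and Per3, -0.18 for Arntl and Dbp, 0.61 for Dbp and Per3, and -0.00 for Dbp and Nfil3.

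**Figure D3:**
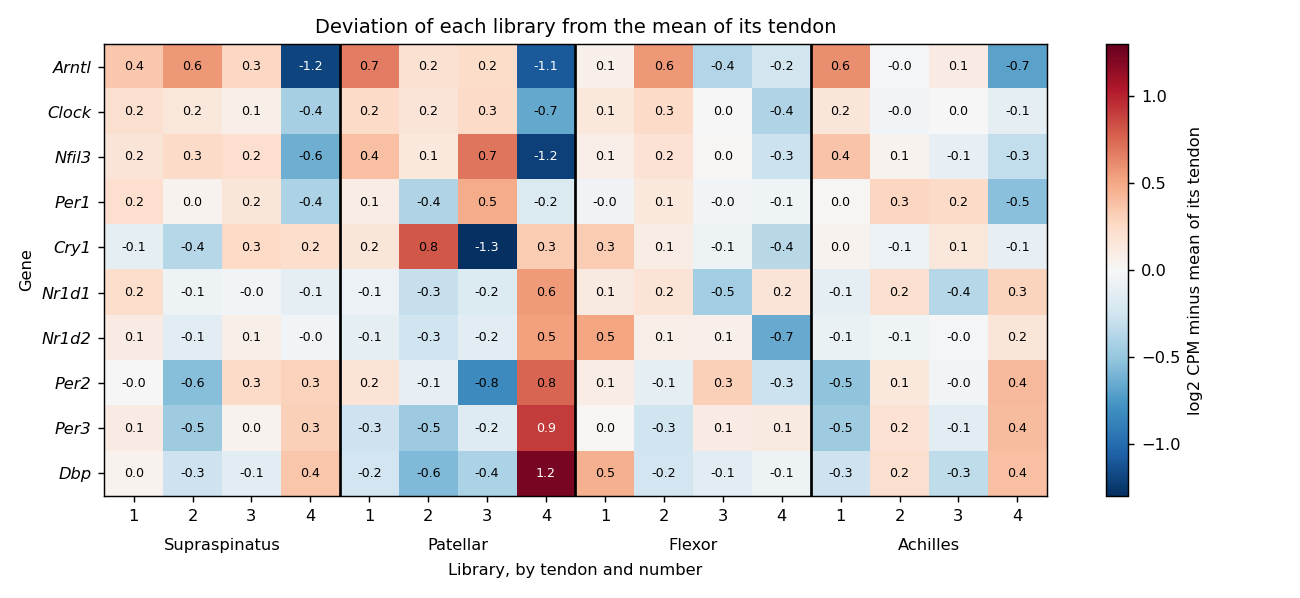
Deviation of each library from the mean of its tendon in log2 CPM (colour and printed value), for the 10 clock genes (vertical axis) and the 16 libraries by tendon and number (horizontal axis). In Supraspinatus, Patellar and Achilles library 4, Arntl, Clock and Nfil3 lie below their tendon's mean and Per2, Per3 and Dbp above it.

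**Figure D4:**
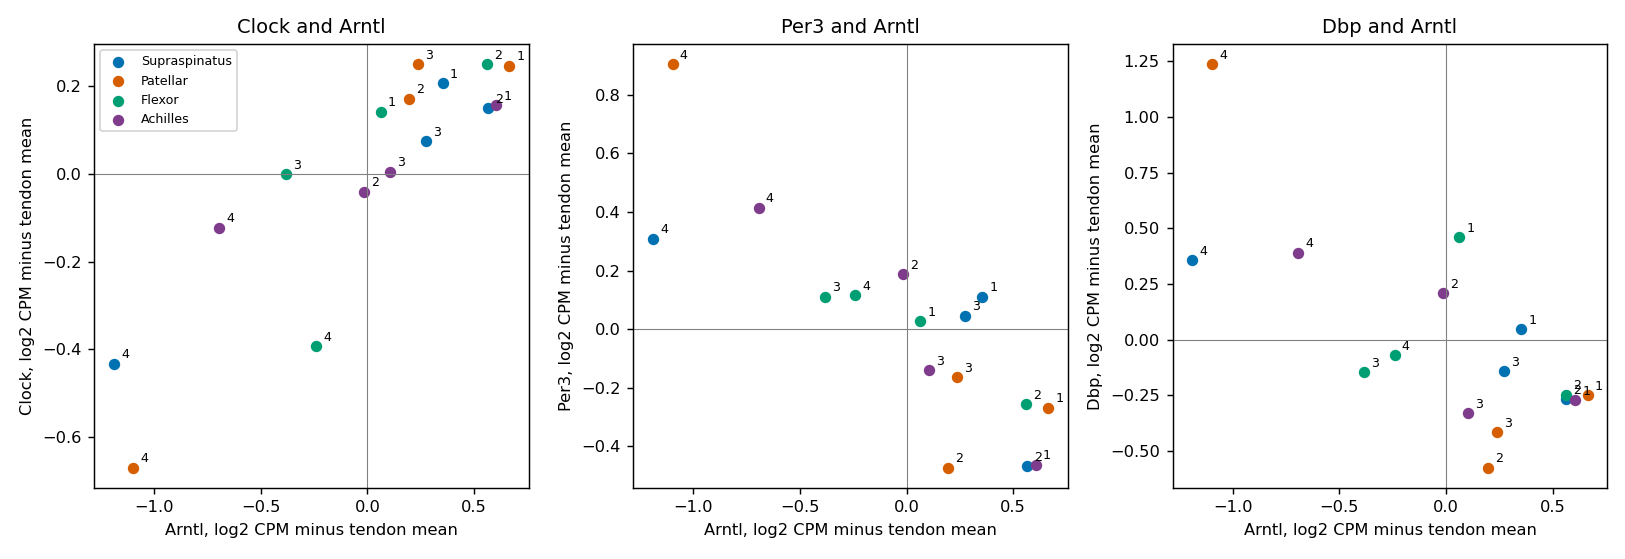
Clock, Per3 and Dbp (vertical axes) against Arntl (horizontal axis), each as log2 CPM minus the mean of the tendon, with points coloured by tendon and labelled by library number (n = 16 libraries). Clock runs upward with Arntl, and Per3 and Dbp run downward, with the libraries numbered 4 on the left.

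Library 4 of Supraspinatus deviated by -1.19 for Arntl, -0.43 for Clock, -0.64 for Nfil3, 0.31 for Per3 and 0.36 for Dbp on the log2 scale. Library 4 of Patellar deviated by -1.10 for Arntl, -0.67 for Clock, -1.22 for Nfil3, 0.90 for Per3 and 1.24 for Dbp. In Flexor the deviations were smaller, at -0.24 for Arntl, -0.39 for Clock, -0.28 for Nfil3, 0.12 for Per3 and -0.07 for Dbp. In Achilles they were -0.69 for Arntl, -0.12 for Clock, -0.32 for Nfil3, 0.41 for Per3 and 0.39 for Dbp. The activators and Nfil3 were thus below and Per3 above their tendon's mean in all 4, and Dbp was above it in all but Flexor.

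The log2 level of Dbp minus that of Arntl puts both arms into 1 value per library. It was 1.21, 0.68, 1.10 and 3.06 in Supraspinatus, 0.73, 0.87, 0.99 and 3.98 in Patellar, -0.30, -1.51, -0.46 and -0.53 in Flexor, and 0.04, 1.14, 0.48 and 1.997 in Achilles. Every Flexor value lay below every value of the other tendons, as the Flexor levels of Dbp alone did. Per3 minus Arntl did not set Flexor apart, at 0.826 to 2.137 there against 0.357 to 2.886 in Supraspinatus. For Dbp minus Arntl, library 4 was the highest in Supraspinatus, Patellar and Achilles but not in Flexor. The spread within Patellar, 3.25, came mostly from its library 4. It exceeded the gap between the Supraspinatus mean of 1.51 and the Flexor mean of -0.70. Of the technical measures, the libraries numbered 4 had 97587088 counts in Supraspinatus, 39513530 in Patellar, 102129482 in Flexor and 96782359 in Achilles, each between the lowest and the highest of the other 3. Other measures did set some of them apart. Supraspinatus library 4 had a tenocyte marker share of 2.83%, against 0.614% to 1.30% in the other 3. Flexor library 4 had the lowest shares of its tendon in tenocyte markers (1.26%), muscle markers (7.81%), adipocyte markers (0.0576%) and genes with rRNA-like sequence (1.86%). Achilles library 4 had the lowest rRNA-like share (3.30%) and the highest adipocyte share (1.02%) of its tendon. The part of these measures in the clock gene levels was not tested.

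Some glucocorticoid response genes were also low in the libraries numbered 4. Of 10 such genes, 3 were the lowest of their tendon there in 4 of 4 tendons and 6 in at least 3, against 0.433% and 7.30% of 9470 genes with a mean CPM of at least 10. Tsc22d3 deviated by -0.58 in Supraspinatus, -1.09 in Patellar, -0.74 in Flexor and -0.36 in Achilles, and Errfi1 by -0.93, -1.22, -0.44 and -0.80 in the same order. The third was Sgk1, at -0.57, -0.26, -0.36 and -0.58. These 3 are named for that position, after their values were seen. Others of the list went the other way in some tendons. In library 4, Mt2 was the highest of its tendon in 2 of 4 tendons, and Fkbp5, Klf9, Angptl4 and Glul in 1 each. The clock members were therefore not alone in being lowest in these libraries, and the part of a hormone response in that was not tested. Of 17 other clock genes, 0 were the lowest there in 4 of 4 tendons and 1 in at least 3. These counts were 1 and 2 for 10 clock output genes, and 0 and 2 for 10 immediate-early genes.

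Ranked by the same tendon-centred r among 9206 named genes, those most like Arntl were Cdkn1a, a cell cycle inhibitor, at 0.93, Errfi1, an inhibitor of EGF receptor signalling that is one of those glucocorticoid response genes, at 0.89, Clock at 0.88, Csrnp1 at 0.87 and Nfil3 at 0.87. Those most opposite were Tspan4, a tetraspanin, at -0.87, Per3 at -0.84, Hlf, which encodes a D-box activator related to DBP, at -0.81, Epb41l2 at -0.81 and Rap2c at -0.80. Among the genes most like Dbp were Bhlhe41, which encodes the clock repressor DEC2, at 0.90, Per3 at 0.89, Evc at 0.88 and Ccdc3 at 0.87. Those most opposite to Dbp were Hat1, a histone acetyltransferase gene, at -0.89, Tmem14c at -0.87, Golga7 at -0.85, Pigm at -0.84 and Crcp at -0.83. All these values rest on the same 16 libraries.

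Among 17 other clock genes, 16 differed between tendons over all 4, against the background of 64.9%. Cry2, the second cryptochrome gene, had its highest mean in Flexor, as Per1 did. It averaged 160.1 ± 19.5 CPM in Supraspinatus, 137.5 ± 19.1 CPM in Patellar, 312.8 ± 29.5 CPM in Flexor and 203.3 ± 26.4 CPM in Achilles (SD, n = 4 each). It was 0.97 lower in Supraspinatus and 1.19 lower in Patellar than in Flexor and 0.62 higher in Flexor than in Achilles on the log2 scale (edgeR adjusted p = 5.89e-05, 4.16e-06 and 0.0052). Rora, which encodes an activator that competes with the REV-ERBs, was 1.12 higher in Supraspinatus, 0.70 higher in Patellar and 1.09 higher in Flexor than in Achilles. Csnk1e, a kinase that acts on PER proteins, averaged 42.2 ± 3.08 CPM in Supraspinatus, 37.7 ± 6.87 CPM in Patellar, 20.9 ± 2.17 CPM in Flexor and 20.0 ± 2.12 CPM in Achilles. Tef, a D-box activator like Dbp, was 1.49 higher in Supraspinatus than in Patellar and 0.86 lower in Patellar than in Flexor, where Dbp was higher (edgeR adjusted p = 2.85e-05 and 0.00309).

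Of 10 clock output genes outside the loop, 8 differed over all 4 tendons, against 64.9% of all genes. Wee1, a cell cycle kinase gene, averaged 86.1 ± 15.2 CPM in Supraspinatus, 44.1 ± 18.8 CPM in Patellar, 22.2 ± 5.49 CPM in Flexor and 15.8 ± 2.64 CPM in Achilles. Ppara, a lipid-sensing nuclear receptor gene, was 2.01 higher in Supraspinatus than in Patellar and 1.40 lower in Flexor than in Achilles on the log2 scale. Nampt, an enzyme gene of NAD synthesis, was 1.34 higher in Supraspinatus than in Patellar and 1.44 lower in Patellar than in Flexor. Hormones and handling also move clock genes, Per1 among them, so genes of both kinds are given beside the members. Of 10 glucocorticoid response genes, 8 differed over all 4 tendons, and of 10 immediate-early genes 7 did, against the same 64.9%. Klf9 averaged 187.6 ± 25.3 CPM in Supraspinatus, 140.8 ± 19.5 CPM in Patellar, 82.4 ± 15.1 CPM in Flexor and 80.2 ± 9.91 CPM in Achilles, Mt2 was 2.12 higher in Flexor than in Achilles, and Angptl4, which fat also expresses, was 4.84 lower in Supraspinatus than in Patellar. Among the immediate-early genes, Atf3 averaged 27.87 ± 4.999 CPM in Supraspinatus, 21.1 ± 7.06 CPM in Patellar, 43.8 ± 4.80 CPM in Flexor and 16.8 ± 1.29 CPM in Achilles, Nr4a1 was 1.24 higher in Flexor than in Achilles, and Egr2 was 2.46 lower in Supraspinatus than in Flexor. Atf3 and Per1 were both highest in Flexor, but the list divided. Fos, Egr2, Ier2, Btg2 and Nr4a1 also had their highest mean there, although Fos, Ier2 and Btg2 did not pass over all 4 tendons. Jun, Junb and Egr1 had their highest mean in Supraspinatus and Fosb in Patellar. The part of such a response in the Per1 levels was not tested.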

How the data were processed

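Tendon RNA was sequenced in 16 libraries, 4 per tendon, whose labels give the tendon and a mouse number. The authors deposited raw gene counts for 41204 genes, without normalization. The submitters' processing notes name FastQC, HISAT2, edgeR and the build mm10. Versions, the read counter and whether it used strand are not given in these sources, so reads of overlapping genes on opposite strands cannot be told apart. The authors' deposited table of 13452 genes gives log2 fold changes, p-values and log2 CPM, and was used only for the counts credited to it.

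Counts were filtered with filterByExpr by tendon, scaled with TMM and fitted with edgeR 4.0.16 in R 4.3.3, with robust quasi-likelihood, all 16 libraries and a mean for each tendon. The 6 contrasts and the test over all 4 tendons were 2-sided, with Benjamini-Hochberg adjustment over all 23754 genes and a threshold of 0.05. The SE is the size of the log2 fold change divided by the root of F. Levels are TMM-scaled CPM, and log2 CPM used a prior count of 2. Positions and exon lengths are from GENCODE for GRCm38, the assembly of mm10, and promoters from RefSeq on GRCm38.p6. Nothing says that libraries of a tendon came from separate animals beyond their mouse numbers, so p-values measure the spread between these libraries. The fit was tested on simulated data. Other settings were DESeq2 1.42.0, limma 3.58.1 with voom, other scalings and filters, a muscle term, a replicate block and libraries left out, and leaving out the libraries numbered 4 together was chosen after their values were seen. All 10 members are named. Of the other clock genes, the 5 with the smallest adjusted p over all 4 tendons are named, of the output, glucocorticoid and immediate-early lists up to 3 each, and for Arntl and Dbp the 5 genes with the highest and the 5 with the lowest r, except 2 genes that are not reported here. More genes of the glucocorticoid and immediate-early lists are named, to show how those lists divide. The members and lists were chosen with earlier results of these data known. Figures were drawn with matplotlib 3.10.9.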

Additional observations from a re-analysis of the deposited data

Results flagged for a closer look

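In 7 of 40 groups of 4 libraries, 1 library lay far from the other 3 by Dixon's 95% critical value for the gap over the range, and chance flags about 1 in 20 groups. Patellar library 4 was the lowest for Clock at 39.45 CPM and the highest for Per3 at 141.6 CPM, Nr1d2 at 110.6 CPM and Dbp at 131.3 CPM. Supraspinatus library 4 was the lowest for Nfil3 at 25.72 CPM. In Flexor, library 2 was the highest for Per1 at 134.5 CPM and library 3 the lowest for Nr1d1 at 213.2 CPM. Patellar library 4 thus accounted for 4 of the 7, in genes of both arms of the clock.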

How the results depend on the processing

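None of the 27 called changes reversed under any alternative, and 7 kept their call under all of them. With muscle markers as a term, 15 lost it, 10 of them under that setting alone, and the counts of clock genes called were 0 for Supraspinatus minus Patellar and Patellar minus Achilles, 1 for Patellar minus Flexor and 3 for Supraspinatus minus Achilles. Without the libraries numbered 4, the count was 7 for Patellar minus Achilles, and Cry1 missed the threshold for Supraspinatus minus Flexor (edgeR adjusted p = 0.0692). Leaving out single libraries gave counts of 4 to 6 for Supraspinatus minus Patellar, 4 to 5 for Supraspinatus minus Flexor, 3 to 5 for Supraspinatus minus Achilles, 5 to 7 for Patellar minus Flexor, 2 to 6 for Patellar minus Achilles, 0 to 5 for Flexor minus Achilles and 6 to 8 over all tendons. Only changes that did not pass reversed. Cry1 in Flexor minus Achilles was -0.012 with median-ratio size factors and with DESeq2, -0.055 with a mean CPM of at least 5, -0.015 with limma, -0.022 with the 8 libraries alone, -0.011 without Patellar, -0.018 without rRNA-like genes and -0.005 with the replicate block. With a mean CPM of at least 5, Nr1d1 was -0.059 in Supraspinatus minus Patellar, -0.028 in Supraspinatus minus Achilles and 0.032 in Patellar minus Achilles, and Per1 was -0.030 in Supraspinatus minus Achilles. With the muscle term, Dbp was -1 and Nr1d1 -0.272 in Supraspinatus minus Patellar, Nr1d1 -0.019 in Supraspinatus minus Achilles, Per3 0.393 and Nr1d1 0.157 in Patellar minus Flexor, and Arntl 0.127, Per3 0.208 and Nr1d1 0.254 in Patellar minus Achilles. Without the libraries numbered 4, Per3 was 0.115 in Supraspinatus minus Patellar and 0.021 in Flexor minus Achilles, and Arntl 0.093 in Supraspinatus minus Flexor. Single libraries left out gave -0.305 to 0.004 for Clock and -0.343 to 0.236 for Per3 in Supraspinatus minus Patellar. In Supraspinatus minus Flexor they gave -0.220 to 0.218 for Arntl, -0.141 to 0.113 for Per2 and -0.185 to 0.012 for Nr1d1, and in Supraspinatus minus Achilles -0.054 to 0.223 for Per1 and -0.009 to 0.197 for Nr1d1. In Patellar minus Achilles they gave -0.431 to 0.075 for Arntl and -0.334 to 0.025 for Nr1d1, and in Flexor minus Achilles -0.265 to 0.017 for Per3, -0.100 to 0.095 for Cry1 and -0.013 to 0.319 for Nr1d2. Over all genes, a mean CPM of at least 5, which tests fewer genes, left 7095 calls for Supraspinatus minus Patellar, 4720 for Supraspinatus minus Achilles, 6904 for Patellar minus Flexor, 5613 for Patellar minus Achilles and 8914 over all tendons, against 12651, 7972, 11952, 9131 and 15420. The muscle term left 3695 for Supraspinatus minus Patellar, 4417 for Patellar minus Flexor and 3804 for Patellar minus Achilles. For Flexor minus Achilles, with 3853 calls, there were 6580 with its 8 libraries alone, 6960 without Patellar, 2520 without Flexor library 2, 2540 without Flexor library 3 and 2357 without the libraries numbered 4, and Patellar minus Achilles had 5854 with its 8 libraries alone. The causes of these shifts were not tested. Depth limits Cry1 most, with 50 counts in Patellar library 3.

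The mouse numbers were not taken to pair the libraries, since r of the deviations of same-numbered libraries was over 0.1 in 6 of 24 pairs and not in all (median 0.026), and 5 of 16 libraries correlated best with their own number. Between Supraspinatus and Flexor it was over 0.1 in 3 of 4 pairs, up to 0.454 for the libraries numbered 4, which is a hint from the data and not from the design. With the number as a replicate block, the counts of clock genes called were 5 for Supraspinatus minus Patellar, 6 for Supraspinatus minus Flexor, 5 for Supraspinatus minus Achilles, 6 for Patellar minus Flexor, 2 for Patellar minus Achilles, 5 for Flexor minus Achilles and 8 over all tendons. Arntl and Clock were the 2 gained over all tendons (edgeR adjusted p = 0.0435 and 0.0149), Arntl passed in Patellar minus Flexor and Clock in Supraspinatus minus Flexor and Flexor minus Achilles, and Nr1d2 missed the threshold in Patellar minus Achilles (0.0507).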
